A study of Mus with 8 samples.

Results

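A set of 10 Notch pathway genes, out of the 31281 genes and transcripts tested, was followed in whole MC38 tumours. They are the receptors Notch1, Notch2, Notch3 and Notch4, the ligands Jag1, Jag2 and Dll4, and the target genes Hes1, Hey1 and Heyl. Hey1 had been chosen by its difference in level between the hosts of these same tumours, and the other 9 were set beside it as partners in the pathway. The host difference of Hey1 is therefore a description and carries no test, and the 9 others were chosen with results of that comparison known. Each member was found through the RefSeq transcript that its probe names, and all 10 had a probe well above background on all 8 arrays. By RefSeq's mouse annotation (GRCm38.p6), Notch1, Jag1 and Dll4 lie on chromosome 2, Notch2 and Hey1 on 3, Heyl on 4, Jag2 on 12, Hes1 on 16, and Notch3 and Notch4 on 17.

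The study asked what loss of heparan sulfate from host fibroblasts does to a colon tumour. The Ext1S100a4Cre hosts were 4 B6 mice with both Ext1 alleles floxed and a Cre recombinase driven by S100a4. The WT hosts were 4 wild-type B6 mice, and the labels do not say whether they carried floxed alleles or a Cre. The mice received MC38, a colon cancer line of mouse origin, under the skin, and the tumour was taken whole 25 to 30 days later. Ext1 elongates heparan sulfate, a sulfated sugar chain on cell surfaces and in matrix. The S100a4 promoter works in fibroblasts but also in part of the immune cells, and the tumour cells themselves came from outside the mutant host. The labels give neither the age nor the sex of the hosts, and their source field names the mutant host by its Cre alone.

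Notch signalling passes between touching cells. A ligand of the Jagged or Delta-like family on one cell binds a Notch receptor on its neighbour, the receptor is cut, and its inner part enters the nucleus, where it joins the DNA-binding protein Rbpj and switches on repressors of the Hes and Hey families. In tumours the pathway is best known from vessels: Dll4 and Notch4 belong to the endothelium, Notch3 and Heyl to pericytes and smooth muscle. Hes1 is also made by intestinal epithelium, and Hey1 answers to other signals besides Notch.

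Values are log2 of the processed spot intensity minus the 75th percentile of the array, so that 0 is the level of that percentile. Levels can be compared between tumours for 1 probe but not between probes. Sums of levels over a list, given below, are led by its brightest probes and serve only to compare tumours. Differences are means of the Ext1S100a4Cre host minus means of the WT host, in log2 units, with the standard error (SE) of limma's fit over all genes. The 75th percentile of intensity lay between 846.9 and 1138 in the Ext1S100a4Cre host and between 1029 and 1265 in the WT host, and the share of probes well above background was 65.7% to 70.9% in the Ext1S100a4Cre host and 68.8% to 71.1% in the WT host. All arrays lay on 1 slide in 2 rows, each with 2 tumours of either host.

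Ext1 measured -0.62, -0.27, -0.54 and -0.42 in Ext1S100a4Cre tumours 1 to 4, against -0.55, -0.28, 0.24 and -0.14 in WT tumours 1 to 4. The groups overlapped, and the probe's place relative to the floxed part is not given in the sources used here, so its level does not check the labels. Several tumours stood apart from their group. Of the 4 Y-chromosome genes Ddx3y, Eif2s3y, Kdm5d and Uty, each was well above background in 2 of 4 tumours of the Ext1S100a4Cre host and in 4 of 4 of the WT host. Their summed level (linear levels relative to the 75th percentile, added over the genes of a list) was 0.0105 and 0.0116 in Ext1S100a4Cre tumours 1 and 4, 0.572 and 0.375 in tumours 2 and 3, and 0.279 to 1.04 in WT tumours. By the summed level, Ext1S100a4Cre tumour 1 was lowest and WT tumour 3 highest in the fibroblast, macrophage and T cell lists, and Ext1S100a4Cre tumours 2 and 3 carried skeletal muscle RNA. The colon epithelial genes Epcam, Krt8, Krt18 and Cdh1, which check the labelled cell type, were well above background on all 8 arrays.

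Hey1 encodes a basic helix-loop-helix repressor and is a classical target of Notch in vessels and developing mesoderm. Its level was 3.01, 2.12, 2.06 and 2.62 in Ext1S100a4Cre tumours 1 to 4, against 1.31, 1.27, -0.06 and 0.51 in WT tumours 1 to 4. Every Ext1S100a4Cre tumour was above every WT tumour, with 0.75 log2 units between the lowest of the first and the highest of the second. Means were 2.45 ± 0.45 in the Ext1S100a4Cre host and 0.76 ± 0.66 in the WT host (SD, n = 4 each). The difference was 1.69 (SE 0.36), or 3.24-fold, and 306 of the 31281 genes and transcripts differed by as much or more in either direction. Over the 8 tumours Hey1 spanned 8.43-fold, from WT tumour 3 to Ext1S100a4Cre tumour 1, which are also the tumours at the ends of the fibroblast and macrophage lists. Without both of them the difference was 1.23 (SE 0.28). Without Ext1S100a4Cre tumours 1 and 4, whose Y-chromosome genes were not well above background, it was 1.33 (SE 0.42), and without tumours 2 and 3, which held muscle RNA, 2.06 (SE 0.43). Tumours 1 and 4 were the higher ones of the Ext1S100a4Cre host for Hey1, so leaving out either pair had to move the difference the way it did.

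**Figure D1:**
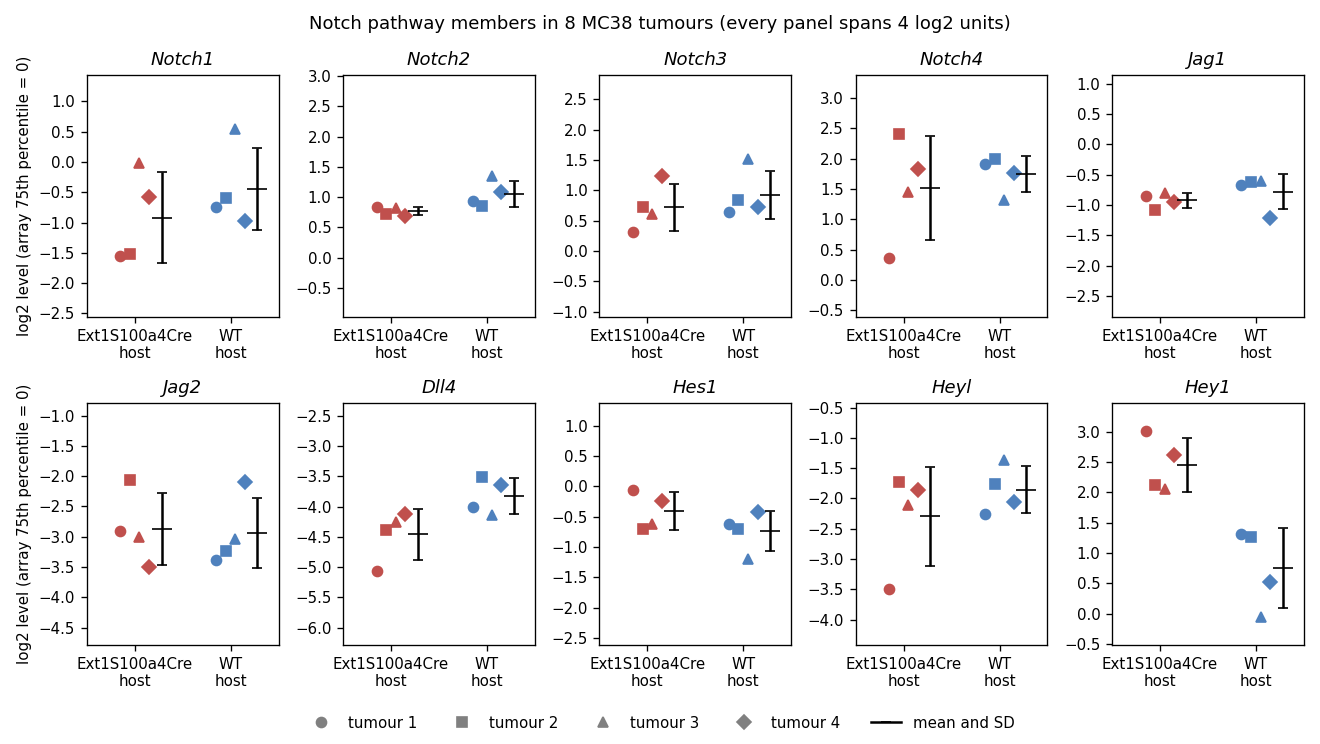
Log2 level of the 10 members in each tumour (vertical axis, 0 is the 75th percentile of the array), with Ext1S100a4Cre host tumours in red at the left and WT host tumours in blue at the right of each panel. Marker shapes number the tumours 1 to 4, and black bars give mean and SD (n = 4). Hey1 has 4 red points above all 4 blue ones, whereas the groups overlap or nearly touch in the other 9 panels.

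Of the 2 other target genes, Hes1 had a higher and Heyl a lower mean in the Ext1S100a4Cre host, both within the spread of the tumours. Hes1, a repressor that keeps progenitors undifferentiated, measured -0.06, -0.71, -0.62 and -0.25 in Ext1S100a4Cre tumours 1 to 4, against -0.62, -0.70, -1.19 and -0.42 in WT tumours 1 to 4. Its highest tumour was Ext1S100a4Cre tumour 1 and its lowest WT tumour 3, the same ends as for Hey1, but the groups overlapped. Means were -0.41 ± 0.31 in the Ext1S100a4Cre host and -0.73 ± 0.33 in the WT host (SD, n = 4 each), a difference of 0.32 (SE 0.22). It was 0.20 without Ext1S100a4Cre tumour 1, 0.17 without WT tumour 3 and 0.05 without both.

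Heyl, the Hey family member best known from vascular smooth muscle, measured -3.49, -1.73, -2.10 and -1.86 in Ext1S100a4Cre tumours 1 to 4, against -2.26, -1.76, -1.36 and -2.06 in WT tumours 1 to 4. Ext1S100a4Cre tumour 1, highest for Hey1, was lowest for Heyl, and WT tumour 3, lowest for Hey1, was highest. The means of -2.30 ± 0.81 and -1.86 ± 0.39 (SD, n = 4 each; Ext1S100a4Cre host and WT host) differed by -0.44 (SE 0.40). The difference was -0.04 without Ext1S100a4Cre tumour 1, -0.27 without WT tumour 3 and 0.12 without both.

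All 4 receptors had a lower mean in the Ext1S100a4Cre host, with differences between -0.47 and -0.21. The 4 signs were the same with normexp, quantile and median scaling. They also held in the unscaled values, where the median of all genes was -0.20. That shift lowers every gene, so genes already lower had to stay lower. With array weights 3 of the 4 were lower (Notch3 differed by 0.03). Without WT tumour 3 and Ext1S100a4Cre tumour 1 only 1 of the 4 was lower. Notch1, the receptor of T cell development and of sprouting endothelium, measured -1.55, -1.53, -0.02 and -0.57 in Ext1S100a4Cre tumours 1 to 4, against -0.75, -0.59, 0.55 and -0.98 in WT tumours 1 to 4. Tumour 3 was the highest in either host, and the groups overlapped over most of their range. Notch1 differed by -0.47 (SE 0.45), by -0.14 without WT tumour 3, and by -0.77 without Ext1S100a4Cre tumour 3. It differed by -0.26 without Ext1S100a4Cre tumour 1 and by -0.27 without tumour 2.

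Notch2, which is widely expressed and needed for marginal zone B cells, measured 0.83, 0.73, 0.82 and 0.70 in Ext1S100a4Cre tumours 1 to 4, against 0.94, 0.86, 1.34 and 1.09 in WT tumours 1 to 4. The groups did not overlap, yet they stood only 0.02 log2 units apart. Means were 0.77 ± 0.07 in the Ext1S100a4Cre host and 1.06 ± 0.21 in the WT host (SD, n = 4 each), and the difference of -0.29 (SE 0.14) had a 95% interval of -0.61 to 0.03. Without WT tumour 3 it was -0.19. Notch2 varied least of the 4 receptors among tumours, spanning 1.57-fold over all 8, against 8.43-fold for Hey1.

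Notch3, the receptor of pericytes and smooth muscle, measured 0.31, 0.73, 0.61 and 1.24 in Ext1S100a4Cre tumours 1 to 4, against 0.64, 0.84, 1.51 and 0.72 in WT tumours 1 to 4. The highest was WT tumour 3 and the lowest Ext1S100a4Cre tumour 1. The difference of -0.21 (SE 0.26) was -0.01 without WT tumour 3, -0.07 without Ext1S100a4Cre tumour 1 and 0.13 without both. Without Ext1S100a4Cre tumour 4 it was -0.38.

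Notch4, the endothelial receptor, measured 0.37, 2.40, 1.44 and 1.84 in Ext1S100a4Cre tumours 1 to 4, against 1.91, 1.99, 1.32 and 1.77 in WT tumours 1 to 4. Ext1S100a4Cre tumour 1 lay well below the other 7, and Ext1S100a4Cre tumour 2 was the highest. The difference of -0.24 (SE 0.40) turned to 0.15 without Ext1S100a4Cre tumour 1. It became -0.53 without Ext1S100a4Cre tumour 2, -0.38 without WT tumour 3 and -0.16 without WT tumour 2. A second Notch4 probe was not well above background in any tumour of either host, so Notch4 rests on 1 probe, as do the 9 other genes.

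Of the ligands, Dll4 and Jag1 had a lower mean in the Ext1S100a4Cre host and Jag2 a slightly higher one. Dll4, the ligand of endothelial tip cells, measured -5.06, -4.39, -4.26 and -4.12 in Ext1S100a4Cre tumours 1 to 4, against -4.01, -3.52, -4.14 and -3.65 in WT tumours 1 to 4. The groups touched: Ext1S100a4Cre tumour 4 stood just above WT tumour 3, and the other Ext1S100a4Cre tumours lay below every WT tumour. Dll4 differed by -0.63 (SE 0.24, 95% interval -1.18 to -0.07), or 0.648 of the WT level. It had the largest difference of the 9 genes other than Hey1 with this scaling. Its probe gave intensities of 25.6 to 110.4, and with normexp in place of the scanner's own background correction the difference was -0.27, smaller than that of Notch1 (-0.42). Without Ext1S100a4Cre tumour 1 it was -0.43.

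Jag1, a ligand made by many cell types, measured -0.85, -1.08, -0.80 and -0.96 in Ext1S100a4Cre tumours 1 to 4, against -0.67, -0.63, -0.60 and -1.22 in WT tumours 1 to 4. WT tumours 1, 2 and 3 lay close together, all above the Ext1S100a4Cre tumours, and WT tumour 4 lay below them all. The difference was -0.14 (SE 0.17), or -0.29 without WT tumour 4, -0.09 without WT tumour 3, -0.09 without WT tumour 2 and -0.09 without Ext1S100a4Cre tumour 2.

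Jag2, a second Jagged ligand, measured -2.91, -2.07, -3.00 and -3.50 in Ext1S100a4Cre tumours 1 to 4, against -3.39, -3.24, -3.04 and -2.10 in WT tumours 1 to 4. Each host had 1 tumour near -2 and 3 between -3.50 and -2.91. The difference of 0.07 (SE 0.37) had no settled sign: it was -0.20 without Ext1S100a4Cre tumour 2, -0.08 and -0.03 without WT tumours 1 and 2, and 0.35 without WT tumour 4. It was 0.28 without Ext1S100a4Cre tumour 4, 0.12 without tumour 3 and 0.04 without WT tumour 3.

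Set against all genes, the members other than Hey1 had mostly lower means, though not with a certain pair of tumours left out. Of the 9, 2 had a higher and 7 a lower mean in the Ext1S100a4Cre host, with a median difference of -0.24, beside a median of 0.05 and 58.1% higher means among all 31281 genes and transcripts. With 1 tumour left out, 6 to 8 of the 9 had a lower mean. Without both Ext1S100a4Cre tumour 1 and WT tumour 3, 6 of the 9 had a higher and 3 a lower mean. Ext1S100a4Cre tumour 1 was the lowest for 5 members and WT tumour 3 the highest for 5, so leaving out this pair favoured higher means. In limma's fit, 0 of the 10 members passed an adjusted p of 0.05, beside 0% of all genes (0 of 31281). At an unadjusted p under 0.05 there were 2 members, Hey1 and Dll4, and 6.55% of all genes. Those genes were 1374 higher and 676 lower, against 2314 and 401 with normexp, 976 and 722 with median scaling, and 174 and 2554 in the unscaled values. The groups did not overlap for 2 members, Hey1 (higher, as 3.4% of all genes) and Notch2 (lower, as 1.14% of all genes), and in either direction for 4.54%. These counts come from the comparison that picked Hey1, and nothing is read from them.

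**Figure D2:**
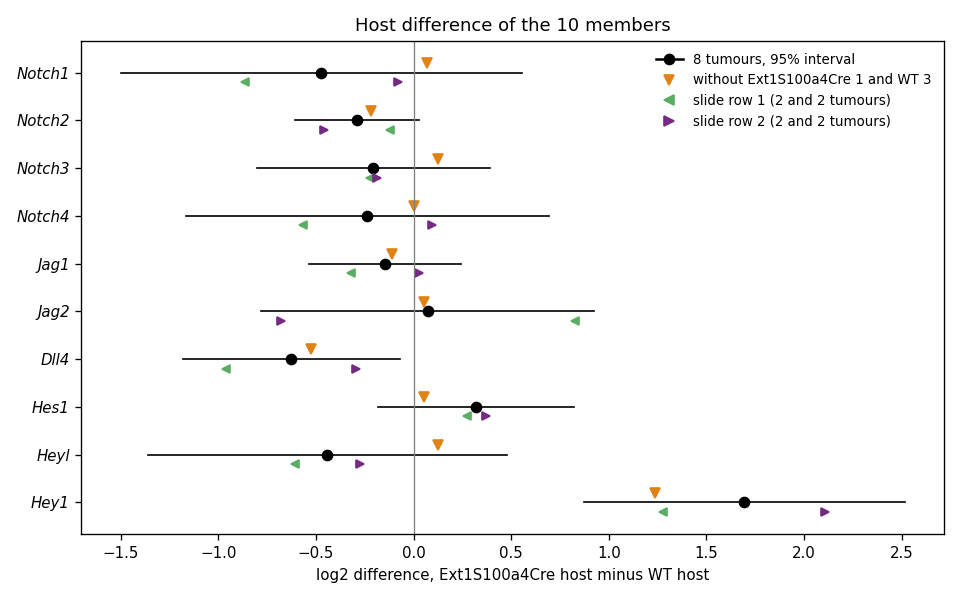
Host difference of each member on the log2 scale (Ext1S100a4Cre host minus WT host, horizontal axis). Black points and lines give the 8 tumours with their 95% interval, orange triangles the value without Ext1S100a4Cre tumour 1 and WT tumour 3, and green and purple triangles the value within slide rows 1 and 2. Hey1 stays right of 0 throughout, as it must, because its groups did not overlap. Of the 7 genes left of 0, 4 (Notch1, Notch3, Notch4 and Heyl) reach or pass it without those tumours.

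The members were also compared with pairs of Ext1S100a4Cre tumours left out. Without Ext1S100a4Cre tumours 1 and 4, Notch1 differed by -0.33, Notch2 by -0.29, Notch3 by -0.26, Notch4 by 0.18, Jag1 by -0.16, Jag2 by 0.41, Dll4 by -0.49, Hes1 by 0.07 and Heyl by -0.06. Without Ext1S100a4Cre tumours 2 and 3, Notch1 differed by -0.62, Notch2 by -0.29, Notch3 by -0.15, Notch4 by -0.65, Jag1 by -0.13, Jag2 by -0.26, Dll4 by -0.76, Hes1 by 0.58 and Heyl by -0.82. Notch4 and Jag2 thus had opposite signs in the different pairs of Ext1S100a4Cre tumours, and Notch2 hardly moved.

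Differences of some members varied between the slide rows. Within slide row 1 and row 2, each with 2 tumours per host, Hey1 differed by 1.28 and 2.11, Hes1 by 0.28 and 0.37, and Heyl by -0.61 and -0.28. Notch1 differed by -0.86 and -0.08, Notch2 by -0.12 and -0.46, Notch3 by -0.22 and -0.19, and Notch4 by -0.57 and 0.09. The ligand Dll4 differed by -0.96 and -0.30, Jag1 by -0.32 and 0.03, and Jag2 by 0.82 and -0.68. Thus 7 of the 10 had the same sign in both rows, and Notch4, Jag1 and Jag2 did not. Whether the row had a part in the differences was not tested.

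Whether other members followed Hey1 from tumour to tumour was described by a distance. Each gene was centred on its mean of the 8 tumours, and the absolute difference from Hey1 was averaged over the tumours, so that a smaller value means a closer course. A gene that did not vary at all would stand at 0.85, and the median of the 31232 genes and transcripts with 8 values was 0.84. Hes1 was the nearest member at 0.69, with 10.3% of genes as near or nearer. The other 8 stood farther than a flat gene would: Jag1 at 0.92, Jag2 at 0.94, Notch3 at 0.95, Notch2 at 0.99, Notch4 at 1.03, Heyl at 1.07, Notch1 at 1.14 and Dll4 at 1.16. Centred within each host instead, which takes the host difference out, a flat gene would stand at 0.45. Hes1 then stood at 0.28, and Jag1, at 0.42, was the only other member below the flat value. With centring over all tumours again but without Ext1S100a4Cre tumour 1, Notch4 came to 0.67 and Hes1 to 0.64. By rank among the 31232, where smaller is nearer, Notch4 moved from 25714 to 6797 and Hes1 from 3213 to 4703.

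**Figure D3:**
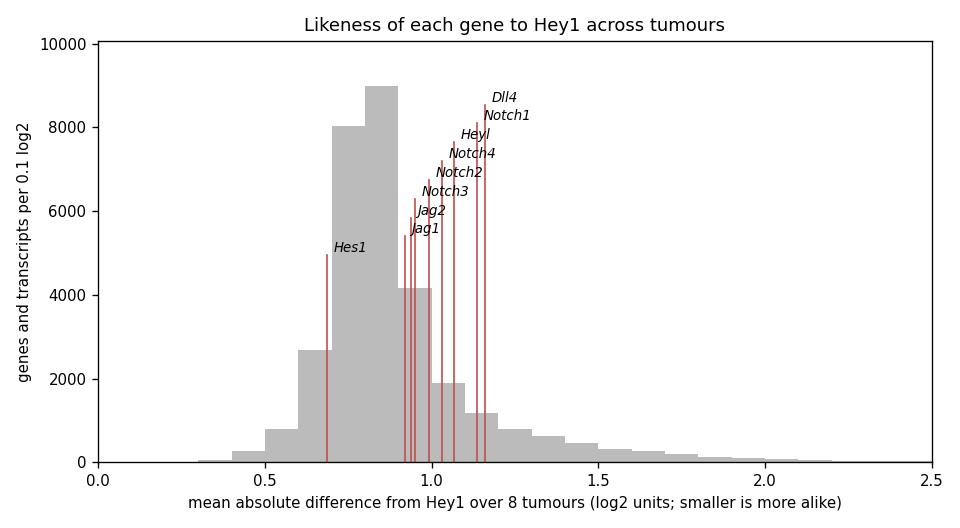
Number of genes and transcripts (vertical axis) by their mean absolute difference from Hey1 over 8 tumours in log2 units (horizontal axis, smaller is more alike, drawn up to 2.5), with the 9 other members as red lines. Line heights only separate the names. Hes1 lies left of the main mass at 0.69, and the other 8 members lie right of its peak, between 0.92 and 1.16.

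The genes other than the members whose course was nearest to that of Hey1 were, among 14330 with a symbol and a probe well above background on all arrays, Klhl10 (0.25), Ppp1r14d (0.26), Srgap3 (0.30), Slc16a5 (0.30) and Gdf1 (0.32). Their host differences were 1.38, 1.23, 1.26, 1.10 and 1.28, a likeness that the Hey1 host difference itself favours. With the host difference taken out, the nearest were Minar2 (0.05), Ntn3 (0.05), Zfp454 (0.08), Tulp3 (0.08) and Zfp248 (0.08). Minar2, for example, measured 3.66, 2.77, 2.67 and 3.22 in Ext1S100a4Cre tumours 1 to 4, against 2.91, 2.81, 1.66 and 2.25 in WT tumours 1 to 4. Within each host it put the tumours in the same order as Hey1, while its groups overlapped.

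Markers of other cell types are set beside the members here as whole lists, of which 0 genes passed an adjusted p of 0.05 in limma's fit. A list's level in a tumour is the mean over its genes after each gene was centred on its own 8-tumour mean. The endothelial list of 16 genes, led by Pecam1, Cdh5, Kdr and Tie1, had 14 lower and 2 higher means and a mean difference of -0.44. It stood at -1.42 in Ext1S100a4Cre tumour 1, between 0.04 and 0.27 in the other 3 Ext1S100a4Cre tumours, and between -0.04 and 0.61 in WT tumours. Its summed level ran from 15.9 to 37.7 in the Ext1S100a4Cre host and from 29.2 to 36.7 in the WT host, with all 4 leading markers well above background on all arrays. In Ext1S100a4Cre tumour 1, on the same centred scale, Dll4 stood at -0.92, Notch4 at -1.26 and Heyl at -1.41. In WT tumour 3, where the list was highest (0.61), Dll4 stood at 0.006, Notch4 at -0.31 and Heyl at 0.72. Fewer cells of a type and less RNA per cell cannot be told apart in whole tumours.

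The list of 11 pericyte and smooth muscle genes, led by Rgs5, Cspg4, Acta2 and Myh11, had 9 lower and 2 higher means and a mean difference of -0.09. The 2 higher were Des (1.73) and Myh11 (0.22), and Des pulled the mean of the list up. It was lowest in Ext1S100a4Cre tumour 1 as well, at -0.90, where Notch3 stood at -0.52. By this mean the list was highest in Ext1S100a4Cre tumour 3, which carried skeletal muscle RNA, at 0.47, where Notch3 stood at -0.22. In WT tumour 3 the list stood at 0.36 and Notch3 at 0.69. By the summed level the list was highest in WT tumour 3 (66.2) and next in Ext1S100a4Cre tumour 4 (55.4). These tumours also had the highest Notch3 levels (1.51 and 1.24). The summed level was 44.8 to 55.4 in the Ext1S100a4Cre host and 48.1 to 66.2 in the WT host, and the 4 leading genes were above background throughout. The part of these cells in the values of the receptors, Dll4 and Heyl was not tested.

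Hey1 ran against the lists of fibroblasts and macrophages at their ends. The 10 fibroblast genes, led by Pdgfra, Col1a1, Col3a1 and Dcn, all had a lower mean in the Ext1S100a4Cre host, and their summed level was 15.01 to 188.4 there against 111.3 to 504.8 in the WT host. The list stood at -3.32 in Ext1S100a4Cre tumour 1, where Hey1 stood at 1.41 on the centred scale, and at 2.36 in WT tumour 3, where Hey1 stood at -1.67. The 9 macrophage genes, led by Adgre1, Csf1r, Cd68 and Mrc1, were also all lower, with a summed level of 5.41 to 49.0 in the Ext1S100a4Cre host and 27.8 to 153.5 in the WT host. In the Ext1S100a4Cre host, tumours 1 and 4 were the lowest for both lists and the highest for Hey1. In the WT host, tumour 3 was the highest for both lists and the lowest for Hey1. WT tumour 1 was the lowest of its host for both lists (0.05 and 0.007) and the highest for Hey1 (level 1.31). Not every tumour showed this opposite course. WT tumour 2 was next to the highest of its host for both lists (0.70 and 0.69) and also for Hey1 (level 1.27). Ext1S100a4Cre tumour 2 stood at 0.98 for fibroblasts, above WT tumours 1, 2 and 4, while its Hey1 level of 2.12 was above every WT tumour. Leading markers of both lists were above background on every array, and their part in the Hey1 difference was not tested.

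Epithelial, muscle and skeletal lists were read for Hey1 as well. The epithelial list, led by Epcam, Krt8, Krt18 and Cdh1, had 6 higher and 2 lower means of 8, a mean difference of 0.09 and summed levels of 75.9 to 147.5 in the Ext1S100a4Cre host and 82.9 to 129.8 in the WT host. The skeletal muscle list, led by Actn3, Ckm, Myh4 and Mylpf, had 9 of 9 tested means higher, and its summed level was 1.11 to 17.4 in the Ext1S100a4Cre host and 0.68 to 1.54 in the WT host. Myh4 was well above background on 2 of 4 arrays of the Ext1S100a4Cre host and 0 of 4 of the WT host. The muscle list was highest in Ext1S100a4Cre tumours 2 and 3, the lower tumours of that host for Hey1. Of the immature muscle genes, Myf5 was well above background on 0 of 8 arrays, Myog on 2 and 0 of 4, Pax7 on 2 and 2 of 4 (Ext1S100a4Cre host and WT host), and Myod1 on all 8, with 1 mean of 2 tested higher. The bone and cartilage list, led by Runx2, Sp7, Bglap and Col2a1, had 1 of 3 tested means higher, with a summed level of 0.130 to 1.10 in the Ext1S100a4Cre host and 0.968 to 6.84 in the WT host. The part of these cells in the Hey1 difference was not tested.

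T and B cell genes were set beside Notch1 and Notch2. All 6 T cell genes, led by Cd3e, Cd3g, Cd3d and Cd8a, had a lower mean in the Ext1S100a4Cre host, with a summed level of 2.06 to 5.77 against 2.93 to 9.40 in the WT host. The T cell list was highest in WT tumour 3 (1.73) and next in Ext1S100a4Cre tumour 3 (1.10), the same 2 tumours that led for Notch1. The macrophage list was led by these tumours too, at 2.44 and 0.71. The part of T cells and macrophages in the values of Notch1 was not tested.

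Of 5 B cell genes, Ms4a1 and Cd79b had a lower mean in the Ext1S100a4Cre host, and Cd79a, Pax5 and Cd22 differed by 0.08, 0.09 and 0.03. Their mean centred level was between -0.83 and -0.12 in Ext1S100a4Cre tumours and between 0.09 and 1.26 in WT tumours, highest in WT tumour 3, as was Notch2. Ms4a1 had the largest difference of the 5 (-3.57) and passed the background filter only through the WT host, so nothing is read from the gap between these ranges. The summed level was 0.886 to 1.19 in the Ext1S100a4Cre host and 1.17 to 2.06 in the WT host, and these ranges did overlap. Ms4a1 was well above background on 0 of 4 arrays of the Ext1S100a4Cre host and 4 of 4 of the WT host, and Cd79b on 4 of 4 in both hosts, with a difference of -1.50 (limma's adjusted p = 0.733). The part of B cells in the values of Notch2 was not tested.

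**Figure D4:**
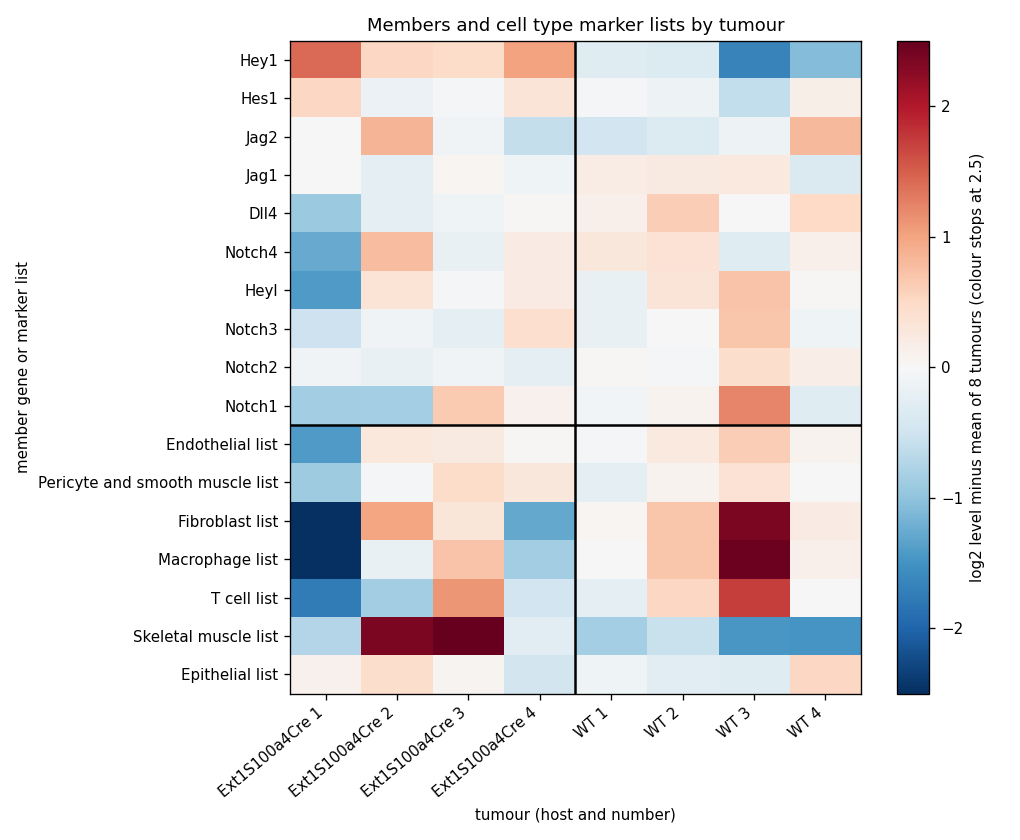
Level of each member (above the line) and mean level of each marker list (below it) in each tumour, as log2 difference from the mean of the 8 tumours, in colour from blue (low) to red (high), with Ext1S100a4Cre host tumours left and WT host tumours right. Hey1 and, more faintly, Hes1 are red in Ext1S100a4Cre tumour 1 and blue in WT tumour 3, where the fibroblast and macrophage lists, Notch1, Notch3 and Heyl show the opposite colours.

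The wider pathway was described with a list of 76 other Notch genes, of which 71 could be tested. Of these, 40 had a higher and 31 a lower mean in the Ext1S100a4Cre host, with a median difference of 0.02 beside 0.05 for all genes. In limma's fit 0 rose and 0 fell at an adjusted p of 0.05, and at an unadjusted p under 0.05 there were 0 higher and 2 lower, beside 4.39% higher and 2.16% lower among all genes. The split of signs depended on scaling: 11 were higher and 60 lower in the unscaled series matrix, where the median of all genes was -0.20.

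The 2 lower genes were Adam17 and Gata3. Adam17, a protease that can cut Notch outside the cell, measured 0.60, 0.11, 0.80 and 0.57 in Ext1S100a4Cre tumours 1 to 4, against 1.13, 0.96, 0.95 and 0.78 in WT tumours 1 to 4. It differed by -0.43 (SE 0.17, limma's adjusted p = 0.747). Gata3, a T helper cell factor and Notch target, measured -4.76, -3.38, -1.73 and -2.78 in Ext1S100a4Cre tumours 1 to 4, against -2.10, -1.90, -0.20 and -2.06 in WT tumours 1 to 4. It differed by -1.60 (SE 0.68, limma's adjusted p = 0.747), with its extremes again in Ext1S100a4Cre tumour 1 and WT tumour 3. Neither passed the threshold, and the hosts overlapped for both.

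Of the genes with a higher mean, the ubiquitin ligases Mib2 and Mib1, which make ligands active, had the smallest unadjusted p. Mib2 measured 1.99, 1.73, 1.75 and 1.98 in Ext1S100a4Cre tumours 1 to 4, against 1.61, 1.54, 1.70 and 1.63 in WT tumours 1 to 4. Mib1 measured 0.46, 0.37, 0.50 and 0.49 in Ext1S100a4Cre tumours 1 to 4, against 0.42, 0.29, -0.03 and 0.10 in WT tumours 1 to 4. All Ext1S100a4Cre tumours stood above all WT tumours for Mib2, and the groups overlapped for Mib1. Their differences were 0.24 (SE 0.12) and 0.26 (SE 0.13), both with limma's adjusted p = 0.747.

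By role, the median difference was -0.47 for 7 further ligands, 0.05 for 17 genes that process or glycosylate ligand and receptor, 0.07 for 10 regulators of the receptor, 0.10 for 18 genes of the nuclear complex and -0.06 for 19 further targets. Rbpj, the DNA-binding core of the pathway, differed by 0.02 (SE 0.11). The coactivators Maml1, Maml2 and Maml3 differed by 0.005 (SE 0.19), -0.82 (SE 0.63) and 0.44 (SE 0.27). Nrarp, a feedback target that is read as a sign of Notch activity, differed by 0.003 (SE 0.26). The Hes genes Hes2, Hes3, Hes5, Hes6 and Hes7 differed by 0.01, 0.80 (SE 0.58), -0.39, 0.35 and 0.40, and Hey2 was too dim to be tested. These genes were named after their values were seen. Low signal limits Hes2, Hes3 and Hes5, whose group means lay between -6.20 and -4.16. Hes5 was well above background on 3 of 4 arrays of the Ext1S100a4Cre host. Of the 7 further ligands, Dll1 was dim too, well above background on 2 of 4 arrays of that host. The groups did not overlap for 3 of the 71, beside 4.54% of all genes: Mib2 (0.24) and Adam10 (0.15) were higher and Pofut1 (-0.19) was lower, the last 2 again named after their values were seen. Adam10 cuts the bound receptor, and Pofut1 adds the fucose that receptors need.

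**Figure D5:**
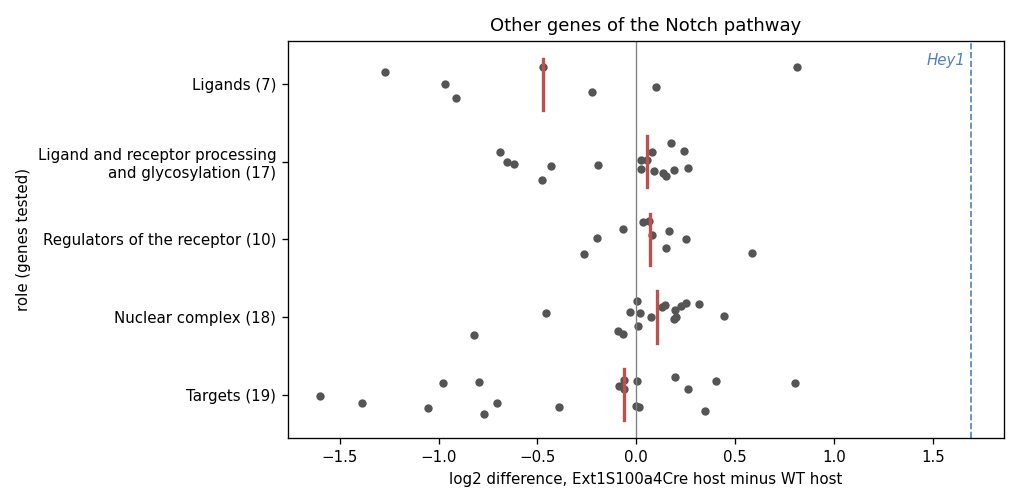
Host difference on the log2 scale (Ext1S100a4Cre host minus WT host, horizontal axis) of the 71 other pathway genes tested, 1 point each, by role (rows, with the number of genes), with the median of each role as a red bar and Hey1 as a dashed line at 1.69. Points are shifted up and down only to separate them. Every point lies left of the dashed line, and the medians of the roles lie between -0.47 and 0.10.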

How the data were processed

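Whole-tumour RNA (0.5 µg) was labelled with Cy3 and hybridised to 1-colour Agilent arrays of 62976 spots. Per the file headers, the deposited intensities come from Agilent Feature Extraction 10.7.3.1 (the submitters' processing notes name 9.1), and the processed intensity had its background subtracted and was detrended within the array. Other deposited columns hold flags of 0 or 1 per spot, per the file headers. The deposited series matrix held the same processed intensities, equal within 0.01% for 100% of probes, with no scaling and with column medians of 47.1 to 80.0.

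Control spots and outlier-flagged spots were left out, no spot was saturated, and spots of a probe were averaged on the log2 scale. Scaling used the 75th percentile over all spots that are not controls. A probe was kept when 4 or more of the 8 arrays had it well above background, and the brightest kept probe stood for its gene. Names came from a RefSeq table of assembly GRCm38.p6 (32994 of 56605 probes matched). The headers name build mm9, so no coordinates are given. The host comparison used limma (version 3.58.1, under R 4.3.3; lmFit, eBayes, two-sided, Benjamini-Hochberg over 31281 genes and transcripts), tested on simulated data. Files were read with data.table (version 1.17.8) and jsonlite 2.0.0, and figures were drawn with matplotlib 3.10.9. The members, lists and naming rule were chosen with earlier results of these data known: all members, per direction the up to 4 pathway genes with the smallest unadjusted p under 0.05 (or, with fewer than 2 such, the 2 smallest), the 5 genes nearest to Hey1 per centring, and the 4 leading markers of each list. A further marker is not reported here. The number of arrays and the signal over background limit the precision. Each host group had 4 mice, per the series' design text.

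Same-numbered tumours of the hosts deviated together for numbers 1 and 3 but not for 2 and 4 (correlations of their deviations over genes 0.49, -0.16, 0.59 and -0.25 for numbers 1 to 4), so the numbers were not taken as pairs. Alternatives were normexp, quantile and median scaling, the series matrix, other filters and probe rules, blocks for replicate number and slide row, array weights, a trended and robust variance, and left-out tumours. The percentile over probes and the fits within a slide row were added after seeing the data.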

Additional observations from a re-analysis of the deposited data

Results flagged for a closer look

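Of 20 groups checked (10 members in 2 hosts), 1 held a tumour far from the rest by Dixon's ratio, where chance flags about 1 in 20. Jag1 in WT tumour 4 stood at -1.22, against -0.67 in the next lowest WT tumour, a gap to the rest of 0.884 of the whole range of its group. Jag2 was highest of its host in the same tumour, at -2.10.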

How the results depend on the processing

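Hey1 was higher in the Ext1S100a4Cre host under all 25 alternatives, with a difference between 1.23 and 2.11. Hey1 was chosen by this difference, so a kept sign is no support for it. Leaving out tumours could not turn the sign of Hey1 or Notch2, whose groups did not overlap. The SD between tumours was 0.45 in the Ext1S100a4Cre host and 0.66 in the WT host. With 1 tumour left out the difference was 1.42 to 1.88. The replicate block left it at 1.69 (SE 0.25), with 0 genes called, 3241 at an unadjusted p under 0.05 against 2050 without the block, and 0 pathway genes called; not every tumour was nearest to its own number. That unadjusted count was 3297 with array weights, 5361 without Ext1S100a4Cre tumours 2 and 3, and 1465 to 2965 with 1 tumour left out. Dll4, Notch2 and Hes1 kept their sign under all alternatives, while Notch1 changed it under 1, Notch3 under 2, Notch4 under 4, Jag1 under 1, Jag2 under 6 and Heyl under 1. Without WT tumour 3 and Ext1S100a4Cre tumour 1 only 3 of the 9 other members were lower, against 6 to 8 with 1 tumour left out. Genes called over all genes numbered 1 with normexp, 1 with array weights, 11 without Ext1S100a4Cre tumours 1 and 4, and 3 without WT tumour 3 and Ext1S100a4Cre tumour 1, and 0 to 2 with 1 tumour left out; 0 members and 0 pathway genes were among them, and the cause was not tested. The rank of Hes1 by likeness to Hey1 lay between 1824 and 5510 under 10 alternatives. Low signal limits Dll4, Jag2 and the dim pathway genes Hes2, Hes3, Hes5 and Dll1, and 4 tumours a host limit every difference.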
